A study of Drosophila melanogaster with 3 samples.

Results

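The Polycomb group and the Trithorax group are chromatin regulators that keep developmental genes, the Hox genes first among them, silent or active through cell divisions. Polycomb repressive complex 2 (PRC2) methylates histone H3 at lysine 27, Polycomb repressive complex 1 (PRC1) binds that mark and ubiquitinates histone H2A, and the Pho repressive complex (PhoRC) brings both to Polycomb response elements in DNA. Trithorax group proteins act against them: they methylate H3 at lysine 4 or 36, remodel nucleosomes, remove the lysine 27 mark or belong to the transcription machinery. The data show where Deadpan, a Hes family repressor known from neural stem cells, was found at the genes that encode these regulators, and say nothing of where the regulators themselves bind.

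The 36 genes were taken by name, 21 with a repressive and 15 with an activating role, out of 13945 protein-coding genes on the main chromosome arms of the fly release 6 (dm6) annotation. Of these, 34 were found by symbol and 2 under an updated symbol (lid as Kdm5, calypso as caly). The chromatin came from whole embryos of both sexes, aged 0 to 24 hours, of a dpn-MiMIC-GFP strain, in which an eGFP exon in an intron of dpn makes a dpn-GFP fusion. The fusion was precipitated with an anti-GFP antibody, although the labels list dpn itself as the antibody. No control library was analysed here. There was 1 group with 3 biological replicates and no second condition. All tissues and stages were therefore mixed, and a site used in a few cells cannot be told apart from a site used weakly in many.

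Each replicate, and the pool of all 3, had a list of 30000 entries (peaks and background regions), in which rank 1 is the strongest by the signal value of the authors' peak caller. A further list, called the IDR list here, holds 5164 peaks kept by the authors' irreproducible discovery rate procedure; they were the 5164 strongest entries of the pooled list. A promoter is called bound here when a summit of the IDR list lay within 1000 bp of any start site of the gene, and bound in a replicate when such a summit was among the 5164 strongest entries of that replicate. The lists hold no read counts, so the depth is unknown and ranks carry no counting error. A replicate's rank for a gene is that of its strongest entry in the window, which need not be the pooled entry. The spread over the 3 replicates is the error given.

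The strongest windows are printed first, 201 bp each with the summit in the middle, because later results refer to them. They are the best-ranked bound promoters of both sides and the strongest summits inside members over 1000 bp from a start site (the latter chosen after their values were seen), leaving out arms whose sequence is not printed. All are the forward strand of the NCBI release 6 genome (dm6 positions). Capitals mark matches, on either strand, to TATCGA (the core of the DREF element), CACGTG (an E-box), CACGCG (a Hes site), CACNAG (an N-box, also bound by Hes proteins), GCCAT (the core of the Pho site), GAGAG (GAGA factor) and CAGGTA (Zelda). TATCGA overlaps its own reverse complement in TATCGATA and GAGAG overlaps itself in GAGAGAG, so such stretches count as 2 matches.
ph-p, rank 7, chrX:2137232-2137432: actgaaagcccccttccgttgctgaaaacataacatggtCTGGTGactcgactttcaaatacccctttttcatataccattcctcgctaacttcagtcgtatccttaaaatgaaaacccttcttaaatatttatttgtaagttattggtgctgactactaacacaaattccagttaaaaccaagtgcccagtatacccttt
Sfmbt, rank 767, chr2L:13176821-13177021: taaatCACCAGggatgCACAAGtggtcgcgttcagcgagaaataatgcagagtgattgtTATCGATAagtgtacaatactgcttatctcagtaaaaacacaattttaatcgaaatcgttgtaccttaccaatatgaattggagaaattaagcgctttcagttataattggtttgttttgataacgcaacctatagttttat
ph-d, rank 1064, chrX:2123945-2124145: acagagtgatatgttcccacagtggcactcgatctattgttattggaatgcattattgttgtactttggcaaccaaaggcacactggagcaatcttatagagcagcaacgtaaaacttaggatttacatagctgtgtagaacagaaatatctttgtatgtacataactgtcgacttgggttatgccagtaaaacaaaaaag
brm, rank 360, chr3L:15982875-15983075: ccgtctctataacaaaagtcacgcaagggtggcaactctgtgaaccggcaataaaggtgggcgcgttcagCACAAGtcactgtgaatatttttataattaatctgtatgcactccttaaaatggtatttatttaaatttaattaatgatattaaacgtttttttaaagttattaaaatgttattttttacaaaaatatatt
Trl promoter, rank 498, chr3L:14757095-14757295: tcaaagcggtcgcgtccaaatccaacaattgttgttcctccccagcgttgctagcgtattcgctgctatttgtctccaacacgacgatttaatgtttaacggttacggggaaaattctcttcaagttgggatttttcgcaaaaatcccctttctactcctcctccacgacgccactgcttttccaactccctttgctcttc
fs(1)h, rank 616, chrX:8057423-8057623: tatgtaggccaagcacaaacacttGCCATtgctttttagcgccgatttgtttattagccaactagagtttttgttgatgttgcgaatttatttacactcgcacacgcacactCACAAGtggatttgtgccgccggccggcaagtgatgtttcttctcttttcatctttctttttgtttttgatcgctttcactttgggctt
Trl intron, rank 29, chr3L:14759400-14759600: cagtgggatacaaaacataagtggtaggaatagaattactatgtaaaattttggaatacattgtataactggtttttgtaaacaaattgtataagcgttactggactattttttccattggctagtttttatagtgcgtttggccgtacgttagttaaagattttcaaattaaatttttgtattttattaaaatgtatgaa
osa intron, rank 34, chr3R:17704310-17704510: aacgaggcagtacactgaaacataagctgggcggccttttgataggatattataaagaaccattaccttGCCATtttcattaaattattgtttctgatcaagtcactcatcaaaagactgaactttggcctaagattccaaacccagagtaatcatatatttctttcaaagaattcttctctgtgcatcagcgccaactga
trx intron, rank 207, chr3R:14283787-14283987: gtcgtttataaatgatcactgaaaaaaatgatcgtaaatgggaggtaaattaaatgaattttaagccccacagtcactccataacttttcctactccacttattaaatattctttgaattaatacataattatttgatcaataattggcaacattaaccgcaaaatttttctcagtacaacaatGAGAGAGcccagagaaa

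None of the 9 windows held the E-box, the Hes site or the Zelda core. The N-box was present in the windows of ph-p, Sfmbt, brm and fs(1)h, the Pho core in those of fs(1)h and osa, the DREF core in that of Sfmbt and the GAGA element in that of trx. The windows of ph-d and both windows of Trl held no match. A and T made up 53.2% of the Trl promoter window and 72.6% of the Trl intron window, the lowest and highest of the 9.

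Most Polycomb and Trithorax group genes had a bound promoter. The promoter was bound for 24 of the 36 genes (66.7%), against 27.9% of all protein-coding genes. In the IDR list the 2 sides had the same share, 14 of 21 repressive genes (66.7%) and 10 of 15 activating genes (66.7%). When a replicate was left out and the IDR peak had to be matched in both others, the shares differed. With 21 and 15 genes few counts give equal shares, so the loss of equality says little about the sides. A match was a summit within 150 bp among the 5164 strongest entries of that replicate. The cut also drops genes whose matched entry was just weaker: Jarid2 had rank 5197 in replicate 2 and Asx 5225 in replicate 3. Leaving out a replicate did not change the IDR list, which came from the pool of all 3. Without replicate 1 the count was 9 repressive (42.9%) and 8 activating genes (53.3%). Without replicate 2 it was 10 (47.6%) and 8 (53.3%), and without replicate 3 it was 9 (42.9%) and 9 (60.0%). Of all protein-coding genes, 22.5%, 22.9% and 22.3% were bound without replicates 1, 2 and 3. In the replicates' own top entries 25, 20 and 21 of the 36 were bound in replicates 1, 2 and 3 (22.0 ± 2.65, SD, n = 3), or 61.1% ± 7.35 of the members against 27.5% ± 0.612 of all protein-coding genes. The lowest replicate still gave 55.6% of the members, and the highest gave 28.2% of all protein-coding genes. Genes are not replicates of a condition and the list was made with earlier results known, so no test was made on it.

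**Figure D1:**
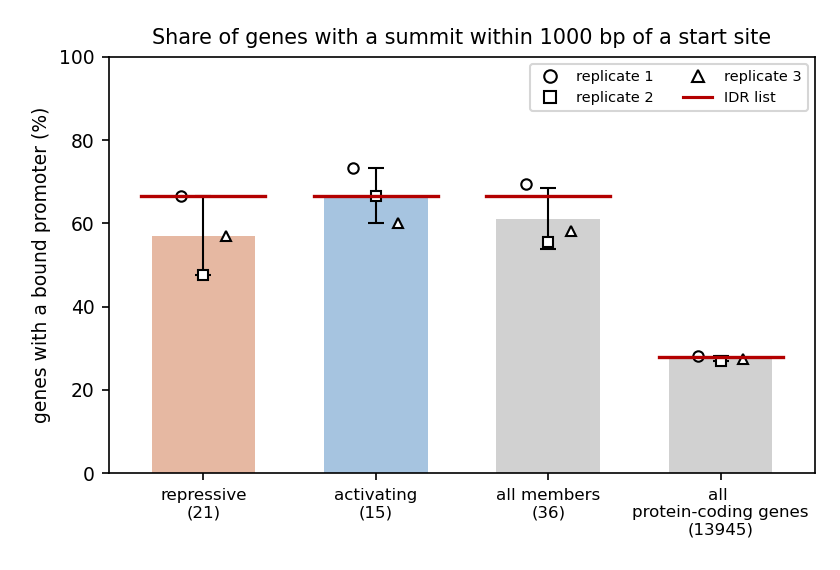
Bars give the mean percentage of genes with a bound promoter over 3 replicates, error bars the SD, open symbols the replicates and red lines the IDR list, with the number of genes in parentheses. Repressive genes lie at 66.7%, 47.6% and 57.1% and activating genes at 73.3%, 66.7% and 60.0%, all above all protein-coding genes, which reach 28.2% at most.

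Between the sides, the repressive share was below the activating share in each replicate, while the IDR list gave no difference. The repressive share was 66.7%, 47.6% and 57.1% in replicates 1, 2 and 3, against 73.3%, 66.7% and 60.0% for the activating genes. These were 14, 10 and 12 of 21 repressive and 11, 10 and 9 of 15 activating genes. With 1 activating gene fewer, the order would be a tie in replicate 1 and reversed in replicate 3. The difference, repressive minus activating, was -6.67, -19.0 and -2.86 percentage points (mean -9.52 ± 8.46, SD, n = 3). The SD of 8.46 points is the spread of the 3 differences, not the error of any 1 of them. It is nearly as large as the mean, and replicate 2 lay furthest from the mean. Bound in all 3 replicates were 16 members (44.4%), 8 of the repressive (38.1%) and 8 of the activating genes (53.3%), against 21.5% of all protein-coding genes.

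Rank gave the same order of members and background. With genes that have no entry placed last, the median member had its best promoter entry at pooled rank 3596, the median repressive gene at 3743 and the median activating gene at 3172, against 15200 for all protein-coding genes. Of the 36 members, 3 (Sce, escl and kto) had no entry of the pooled list within 1000 bp of a start site, against 5149 of the 13945 protein-coding genes. Bound in no replicate were 9 members, against 9228 of the 13945. Among the 1000 strongest peaks, 5 members had a bound promoter (13.9%), 2 repressive and 3 activating, against 7.02% of all protein-coding genes.

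Gene length, which differs between members and other genes, is shown beside the count. The median member was 8434 bp long and the median protein-coding gene 2166 bp. Among genes of 5 to 20 kb, 15 of 17 members had a bound promoter, including all 10 repressive genes of that length, against 41.1% of all protein-coding genes. At 20 kb or more it was 5 of 7 members, against 37.6%. Under 5 kb it was 4 of 12, against 23.9%, where 8 of the 12 unbound members lie. Members had 1.78 annotated start sites on average and all genes 1.41; with the outermost start site alone, 22 of 36 members were bound against 26.0%.

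**Figure D2:**
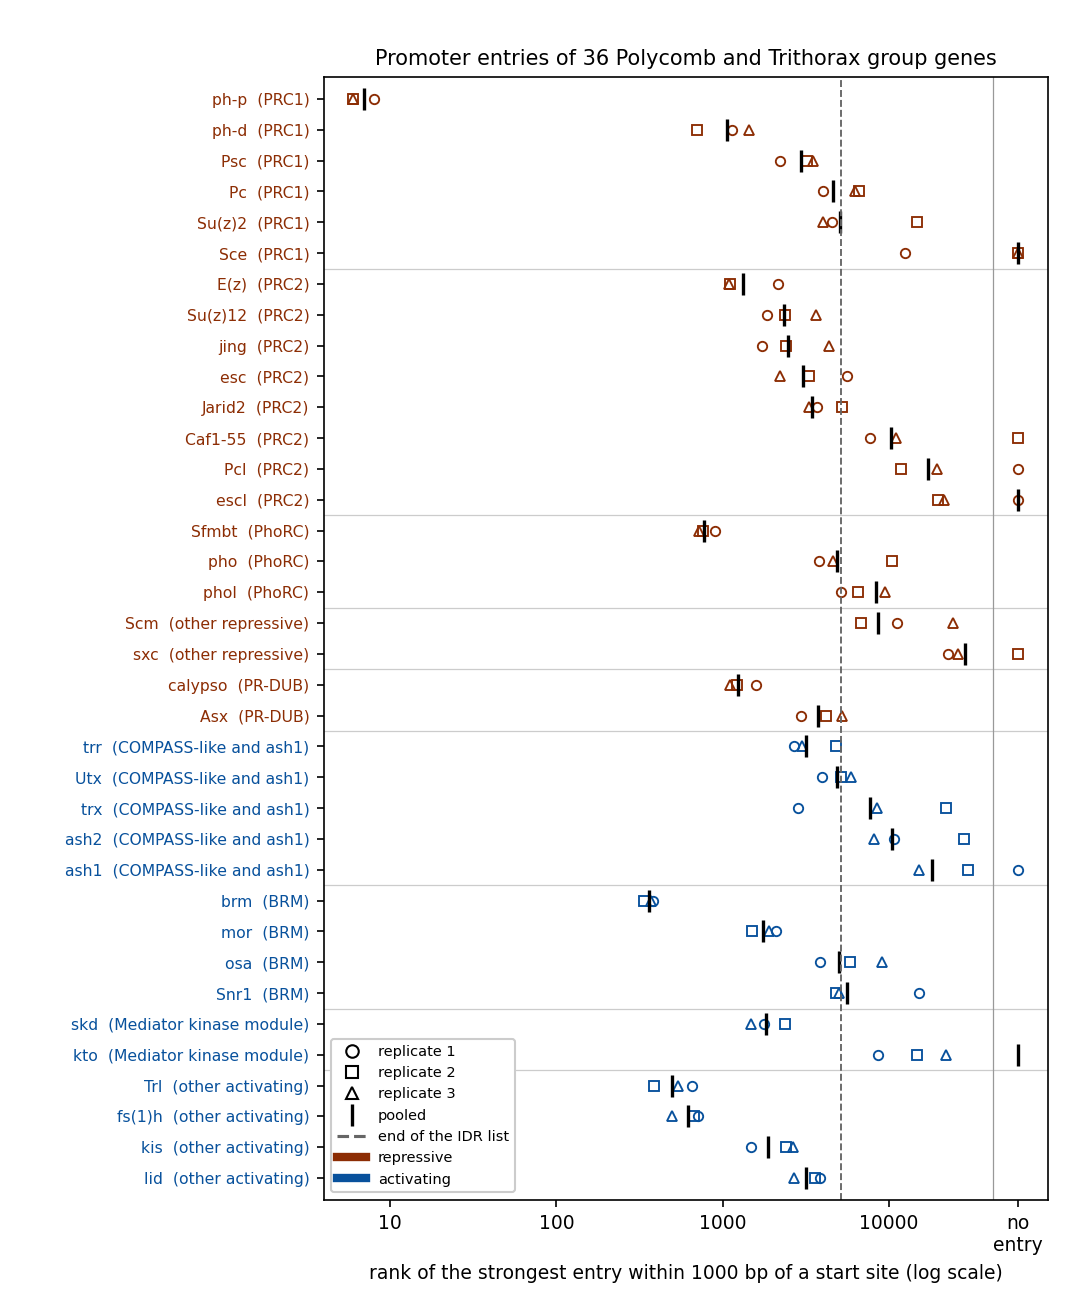
Each row is a gene with its complex in parentheses, and the x axis (log scale) gives the rank of its strongest entry within 1000 bp of a start site in each replicate (open symbols) and in the pooled list (black bar). The dashed line marks rank 5164. ph-p stands alone at the left with ranks 8, 6 and 6, and Su(z)2, pho, osa, Utx and Snr1 have pooled ranks near the line.

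For the counts by complex that follow, the share of all protein-coding genes with a bound promoter was 27.9%. Of PRC1, the complex that holds target genes silent, 5 of 6 genes had a bound promoter, led by ph-p. This gene encodes Polyhomeotic, a subunit with a SAM domain that polymerises. Its strongest entry (FBgn0004861, chromosome X, 2137128 to 2137606) stood at rank 7 of the IDR peaks, and replicates 1, 2 and 3 gave ranks 8, 6 and 6. The 3 ranks nearly coincide, and the next promoter among the members was that of brm at rank 360. The summit lay in an intron, 477 bp upstream of an internal start site and 1039 bp downstream of the gene's 5' end. A further summit over an untranslated exon, 408 bp downstream of a start site, had rank 496, with ranks 265, 915 and 423 in the replicates.

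Its neighbour ph-d, a tandem copy that encodes a nearly equivalent protein, had its strongest promoter entry (FBgn0004860, chromosome X, 2123921 to 2124159) at rank 1064, with 1141, 696 and 1439 in the replicates. All replicates thus placed ph-d well below ph-p. The ph-d summit lay 759 bp upstream of a start site and outside the gene. The copies share sequence, and misplacement of reads between them was not tested. Of all stretches of 36 bases, 95.9% in the rank 7 peak of ph-p and 90.8% in a weaker ph-d peak (rank 4819) were found once on the main arms. The other 54 of the members' 56 peaks had every stretch found once.

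The remaining PRC1 genes were weaker and nearer to the threshold. Psc, which encodes the RING finger subunit that compacts chromatin, had its best promoter entry (FBgn0005624, chromosome 2R, 12980522 to 12980937) at rank 2943, with 2216, 3213 and 3489 in the replicates. Its paralogue and neighbour Su(z)2 had rank 5080 (FBgn0265623, 12996351 to 12996766), with 4524, 14699 and 3995, so that replicate 2 did not share the call. Pc, whose protein reads methylated lysine 27, had rank 4593 (FBgn0003042, chromosome 3L, 21317924 to 21318339, 112 bp upstream of its start site), with 4024, 6597 and 6223, and was bound in replicate 1 alone. Sce, which encodes the ubiquitin ligase of the complex, had an entry in replicate 1 alone (rank 12456).

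Of PRC2 and its accessory subunits, 5 of 8 genes had a bound promoter, the catalytic subunit first. E(z), which encodes the methyltransferase, had its summit 21 bp downstream of a start site (FBgn0000629, chromosome 3L, 10638011 to 10638218), at rank 1329, with 2137, 1108 and 1084 in the replicates. Su(z)12, the scaffold gene, had rank 2352 (1847, 2364 and 3635 in the replicates; FBgn0020887, chromosome 3L, 19923428 to 19923843). Both were bound in all 3 replicates. The summit near Su(z)12 was closer to the divergent gene Pfdn6, at 35 bp, than to Su(z)12, at 174 bp.

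The paralogues esc and escl, which encode the subunit that binds methylated lysine 27, differed. The promoter of esc was bound at rank 3042 (FBgn0000588, chromosome 2L, 11829273 to 11829688, 76 bp upstream), with 5581, 3304 and 2208 in the replicates. escl had no pooled entry and, in replicates 2 and 3 alone, entries at ranks 19811 and 21544. In each replicate esc was therefore stronger than escl.

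The accessory genes jing and Jarid2 were bound and Pcl was not. jing, the homologue of mammalian AEBP2, had rank 2474 at an internal start site (FBgn0086655, chromosome 2R, 6613412 to 6613827), with 1726, 2397 and 4379 in the replicates. Jarid2 had rank 3449 (FBgn0036004, chromosome 3L, 9476758 to 9477173), with 3700, 5197 and 3325, but this summit was 1 bp from the start site of its neighbour Uch-L5 and 72 bp from that of Jarid2. The best pooled entry of Pcl, which encodes a PHD finger subunit, had rank 17212 and lay in a coding exon, 652 bp from the start site. That of FBgn0263979, the gene of the p55 histone-binding subunit of chromatin assembly factor CAF-1, which other chromatin complexes share, had rank 10337, with 7667 and 11030 in replicates 1 and 3 and no entry in replicate 2.

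Of the DNA-binding complex PhoRC, Sfmbt and pho were bound and phol was not. Sfmbt, which encodes the partner of Pho, was among the strongest members with rank 767 (FBgn0032475, chromosome 2L, 13176730 to 13176924, 136 bp upstream of a start site) and 905, 766 and 717 in the replicates. Its printed window is the only 1 of the 9 with the DREF core. pho, on chromosome 4, had rank 4837 (FBgn0002521, 1181610 to 1182025, 190 bp upstream), with 3805, 10488 and 4594, and replicate 2 did not share the call. Its paralogue phol had a pooled rank of 8346, with 5118, 6525 and 9528, the first of which lies just inside the replicate's top 5164. The orders of pho and phol differed between replicates: pho was stronger in replicates 1 and 3 and phol in replicate 2.

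Both genes of the Polycomb deubiquitinase, which removes ubiquitin from H2A, were bound. calypso, the enzyme, had rank 1229 (FBgn0262166, chromosome 2R, 16196787 to 16196958), with 1596, 1214 and 1102, but its summit lay 550 bp from its own start site and 159 bp from that of CG42837. Its partner Asx had rank 3743 (FBgn0261823, chromosome 2R, 14503714 to 14504129, 36 bp upstream), with 2963, 4201 and 5225 in the replicates. Scm, which links PRC1 to other complexes, and sxc, the O-GlcNAc transferase gene, were bound in no list. Their best pooled entries had ranks 8585 and 28680.

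Among the activating members, those of the BRM chromatin remodeller, the fly SWI/SNF complex, were bound in 3 of 4 cases. Further subunit genes of this complex, some bound and some not, are not members and are counted with the related genes below. brm, which encodes the ATPase, had the strongest promoter of this side with rank 360 (FBgn0000212, chromosome 3L, 15982844 to 15983175, 106 bp upstream), and the replicates gave 380, 334 and 372. mor, a core subunit gene, had rank 1758 (FBgn0002783, chromosome 3R, 15972997 to 15973104, 189 bp upstream), with 2082, 1507 and 1910. These 2 genes showed little spread over the replicates. osa, which encodes the subunit that defines the BAP form of the complex, had a promoter rank of 4975, with 3861, 5807 and 9056, and was bound in replicate 1 alone. Snr1 missed the threshold at pooled rank 5568, with 15107, 4773 and 5040, and was bound in replicates 2 and 3.

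Of the genes of the histone methyltransferase complexes, 2 of 5 had a bound promoter in the IDR list, and 3, 2 and 1 in replicates 1, 2 and 3. trr, an H3 lysine 4 methyltransferase gene, had rank 3172 (FBgn0023518, chromosome X, 1889961 to 1890376), with 2678, 4804 and 3020, and its summit was 87 bp from the start site of mRpL16 and 219 bp from its own. Utx, the lysine 27 demethylase gene, had rank 4892 (FBgn0260749, chromosome 2L, 10276791 to 10277206), with 3936, 5146 and 5934. The promoter of trx, the founding gene of the group, had pooled rank 7646, with 2837, 22083 and 8419, a spread that takes it across the threshold. ash2, a core subunit gene, and ash1, which encodes an H3 lysine 36 methyltransferase, had pooled ranks of 10379 and 18261 and were bound in no replicate.

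The other activating genes, with unlike functions, were bound in 4 of 4 cases, each in all 3 replicates. Of all protein-coding genes 27.9% were bound, and 21.5% in all 3 replicates. These 4 genes had 3.50 start sites on average and a median length of 18375 bp, against 1.41 and 2166 bp. Each of the 4 also had an IDR summit within 1000 bp of the gene's 5' end. Whether the number of start sites or the length bears on these calls was not tested. Trl, the gene of GAGA factor, which binds GA repeats and recruits remodellers, had rank 498 (FBgn0013263, chromosome 3L, 14757069 to 14757343, 141 bp downstream of a start site), with 652, 384 and 541. fs(1)h, which encodes a BET bromodomain protein, had rank 616 in an intron (FBgn0004656, chromosome X, 8057315 to 8057730), with 713, 675 and 494. An internal start site lay 822 bp downstream, and the entry matched to this peak in replicate 1 had rank 837. A second peak of nearly equal rank, 671 (8061484 to 8061698), lay upstream of the gene's 5' end. kis, a CHD family ATPase gene, had rank 1874 (FBgn0266557, chromosome 2L, 250676 to 251091), with 1483, 2413 and 2650. lid, an H3 lysine 4 demethylase gene found genetically in the Trithorax group, had rank 3158 (FBgn0031759, chromosome 2L, 5999250 to 5999665), with 3865, 3569 and 2692.

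Of the Mediator kinase module, 2 genes are members, of which 1 was bound. Its genes Cdk8 and CycC, which are not members, had no bound promoter (pooled ranks 6784 and 8786). skd, which encodes Med13, had rank 1816 (FBgn0003415, chromosome 3L, 21027671 to 21028086), with 1784, 2377 and 1485, and its summit was 36 bp from the start site of Pdss2 and 445 bp from its own. kto, which encodes Med12, had no pooled entry in the window, and ranks of 8620, 14818 and 21918 in the replicates. In every replicate skd was the stronger of the pair.

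The call of several members turned on the threshold. The nearest members inside it were Su(z)2 (5080), osa (4975), Utx (4892), pho (4837) and Pc (4593). Outside it Snr1 (5568) was near, and the next members, trx (7646), phol (8346) and Scm (8585), were well away from it. Neighbouring genes bear on the calls as well: for 22 members (61.1%) another protein-coding gene started within 1000 bp, against 42.9% of all protein-coding genes. When each summit was given only to its nearest start site of any gene, 19 members were bound (52.8%) against 19.6%; the 5 lost were Su(z)12, Jarid2, calypso, trr and skd. Of the 11 members with no start site of another gene within 1000 bp, 8 were bound, against 15.4% of all such protein-coding genes.

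The bound summits lay close to start sites. Among the 24 bound members the strongest summit was 138.5 bp from the nearest start site of the gene at the median, from 7 bp at osa to 822 bp at fs(1)h, against a median of 144 bp over the 3891 bound protein-coding genes. It lay upstream in 18 of 24 cases (75.0%), 12 of 14 repressive and 6 of 10 activating, against 83.1% of all bound genes. Both descriptions place the members near the rest of the list.

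Inside the genes, the activating side held more summits than the repressive side, and its genes were also longer. A summit of the IDR list lay between start and end of 14 of the 36 genes (38.9%), against 13.2% of all protein-coding genes. These were 5 of 21 repressive genes (23.8%) and 9 of 15 activating genes (60.0%), with 14 and 24 summits. The median length was 7137 bp for repressive and 10102 bp for activating genes. Within classes of length, 1 of 12 members under 5 kb had such a summit, against 5.75% of all protein-coding genes, 7 of 17 from 5 to 20 kb, against 29.0%, and 6 of 7 from 20 kb on, against 51.3%. By side, 3 of 10 repressive and 4 of 7 activating genes of 5 to 20 kb had one, with 9 summits on each side. From 20 kb on it was 1 of 2 repressive and 5 of 5 activating genes, with 4 and 15 summits. A summit of the 1000 strongest peaks lay in 7 members (19.4%), against 3.54%.

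**Figure D3:**
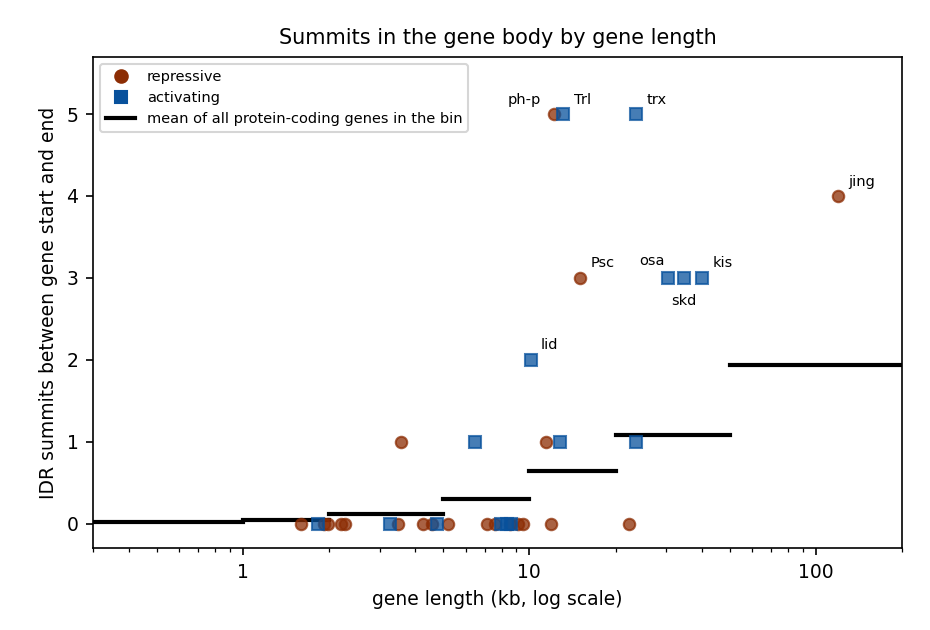
Each point is a gene, with its length in kb (log scale) on the x axis and the number of IDR summits between its start and end on the y axis, and black lines give the mean over all protein-coding genes in bins of length. ph-p, Trl and trx hold 5 summits each, where the mean is 0.643 for genes of 10 to 20 kb and 1.08 for genes of 20 to 50 kb, and most members under 10 kb hold none.

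The 38 summits inside members were in introns in 28 cases and over untranslated exons in 10, and none was in a coding exon. The placement of summits was not counted over all protein-coding genes, so no background stands beside these counts or the next. Over 1000 bp from every start site of the gene were 22 of the 38, 6 in repressive and 16 in activating genes. Such distal summits were present in 9 members (25.0%), 3 repressive and 6 activating, against 6.26% of all protein-coding genes. For 8 members that had both a bound promoter and a distal summit, the distal one was the stronger in 5 (Psc, jing, osa, Trl and kis), against 49.0% of the 471 protein-coding genes with both. For jing this order was not shared by replicate 1, where the promoter had rank 1726 and the best distal summit 2049, and the ranks were close in replicate 2 (2397 for the promoter and 2356 for the distal summit).

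Trl and osa held the strongest of these intronic summits. In an intron of Trl a summit 1538 bp from the nearest start site (chromosome 3L, 14759278 to 14759734) had rank 29, and the replicates gave 29, 26 and 30. It was stronger than the Trl promoter in every replicate. In osa a summit 13940 bp from the start site (chromosome 3R, 17704225 to 17704626), over an exon of the non-coding gene lncRNA:CR46035, had rank 34, with 28, 42 and 37. A second intronic summit of osa had rank 813, with 918, 949 and 780. All 3 replicates thus placed these sites far above the osa promoter, which had 3861, 5807 and 9056.

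The gene trx, whose promoter was not bound, held 5 intronic summits. The strongest (chromosome 3R, 14283712 to 14284036, 3016 bp downstream of the start site) had rank 207, with 218, 255 and 170 in the replicates, and the others had ranks 1901, 3069, 4112 and 4888. Including the gene body therefore brought the count of members with any summit to 25, trx being the addition, and left 11 with none. Of the 13945 protein-coding genes, 4293 had any such summit and 9652 had none. In Psc the strongest entry of the gene was intronic, 5068 bp from a start site, with rank 650 and 885, 535 and 568 in the replicates. In kis the intronic summit at rank 928, over an exon of the non-coding gene lncRNA:CR44222, had 925, 1616 and 639. In jing, which is 119787 bp long, the best of 3 distal summits had rank 2134 with 2049, 2356 and 1974.

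**Figure D4:**
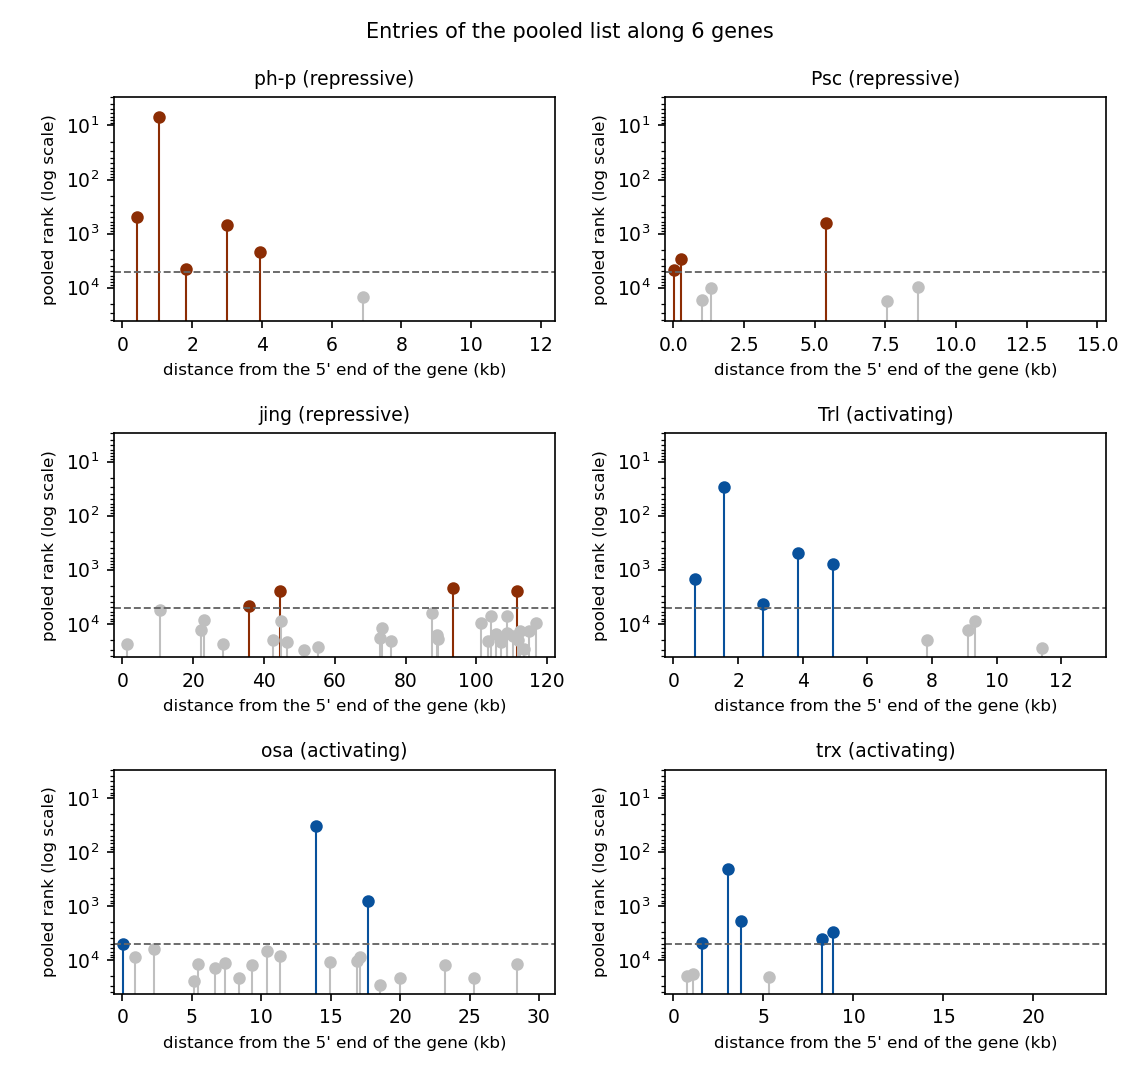
For 6 genes chosen after their values were seen, each stem is an entry of the pooled list, with its distance from the 5' end of the gene in kb on the x axis and its pooled rank (log scale, strongest at the top) on the y axis. Coloured stems passed the IDR threshold (dashed line) and grey ones did not. Only entries with the summit between start and end of the gene are drawn, so entries upstream of the 5' end are absent. The tallest stems are those of ph-p (rank 7), Trl (rank 29), osa (rank 34) and trx (rank 207).

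The 56 distinct peaks of the IDR list at the members, 25 of repressive and 31 of activating genes, had a median rank of 2408.5, against 2582.5 for all 5164. The median was 2465 for peaks of repressive genes and 1914 for peaks of activating genes. Among the 1000 strongest were 15 of the 56 (26.8%), namely 5 of the 25 of repressive and 10 of the 31 of activating genes, against 19.4% of all peaks. A match within 150 bp among the top 5164 entries of all 3 replicates was found for 38 (67.9%), against 66.9%. It was found for 15 of 25 peaks of repressive genes (60.0%) and 23 of 31 of activating genes (74.2%).

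Taken over both sides, short sequence matches at these peaks were near those of the whole list. Within 50 bp of the summit, TATCGA was present at 6 of the 56 peaks (10.7%, exact 95% binomial interval 4.03 to 21.9%), against 10.5% of all peaks. The E-box was present at 1 peak (1.79%, interval 0.0452 to 9.55%), against 47 of the 5164 peaks, and the Hes site also at 1, against 1.92%. The N-box was present at 5 (8.93%, 2.96 to 19.6%), against 11.4%. GAGAG was present at 9 (16.1%, 7.62 to 28.3%), against 11.2%, and CAGGTA at 1, against 2.19%. GCCAT was present at 12 (21.4%, 11.6 to 34.4%), against 15.9%, namely at 2 of 25 peaks of repressive and 10 of 31 of activating genes. Of the motifs counted, it is the only 1 given by side here. No interval was computed by side, and trx and Trl hold 5 peaks each, so the split is not read as a difference. Each interval over the 56 peaks holds the share of the whole list. A match is a description of letters, not a binding site.

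Other genes of the same processes were taken from a pair of lists of 48 genes in all. Of 19 related repressive genes (recruiters, heterochromatin and NuRD genes and others) 14 had a bound promoter (73.7%), and the replicates' own top entries gave 77.2% ± 3.04 (SD, n = 3). The best ranks belonged to Dsp1, which encodes an HMG box protein (rank 209; 198, 224 and 216 in the replicates), and to MEP-1, which encodes a partner of the remodeller Mi-2 (rank 815; 742, 506 and 1622). Of 29 related activating genes (COMPASS, BRM and NURF subunits and others) 14 were bound (48.3%; 43.7% ± 3.98 in the replicates, SD, n = 3). Here Bap60, a BRM subunit gene (rank 896; 902, 1092 and 857), and nej, the gene of the acetyltransferase CBP (rank 1161; 1526, 1153 and 961), came first. Both lists were above the 27.9% of all protein-coding genes, in each replicate as well.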

How the data were processed

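The members and lists were chosen with earlier results of these data known, and the following after seeing the data: the bounds of the length classes, the intronic windows whose sequence is printed, the comparison of intronic with promoter entries, the call in all 3 replicates, the matching of peaks in all 3 replicates and the check of 36-base uniqueness. Per the labels, chromatin of 3 biological replicates was sheared by sonication to fragments of 200 to 800 bp. The deposited file lists name the alignment of a replicate, or of all 3 pooled, and 1 further file they do not describe as the source of each set of entries passed to IDR; aligner and caller are not given in the sources used here. The deposited signal value per region (column 7) served to order the entries of 1 list and was never compared between lists. The deposited −log10 q-value (column 9) was not used for ranking, and the summit is the start plus column 10. Depth per sample is unknown.

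The dm6 lists were used, and all entries fitted the arm lengths of release 6. The lists for dm3 were not analysed here. Start sites and gene bodies came from Ensembl release 115; all 36 members had the same arm, start and end in RefSeq. A replicate's rank for a gene is that of its strongest entry within 1000 bp of a start site, and for a single peak that of the strongest entry within 150 bp of its summit. Untranslated exon means exon sequence outside the coding sequence of the gene. Intervals are exact (Clopper-Pearson, scipy 1.17.1, Python 3.11.15), cover counting error only and treat peaks as independent. Uniqueness is the share of 36-base stretches found once on the main arms, both strands. No test was made: there is 1 group, and p-values over chosen genes were not computed. The assignment of summits to start sites was tested on simulated data, and all 200 planted genes were called. All members are named by rule, and of the related genes the 2 best-ranked bound ones in each list. Cdk8 and CycC are named in addition, as genes of the Mediator kinase module. Alternatives changed the window, the annotation, the peak set, the assignment to genes, the matching distance and the replicates used.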

Additional observations from a re-analysis of the deposited data

How the results depend on the processing

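No paired analysis was possible because the series holds 1 group. The share of members with a bound promoter was above that of all protein-coding genes under each alternative run. The count of 24 bound members stayed within 1.5 times under windows of 500 bp (23), 2000 bp (26) and 5000 bp (31, when 48.1% of all genes were bound), with RefSeq start sites (24) and with the top 10000 pooled entries (28). It changed by more with the upper 50% of the IDR list (13, of which 7 repressive and 6 activating; 16.3% of all genes), with the top 1000 peaks (5, of which 2 and 3) and without members that have another start site within 1000 bp (8 of 11, of which 5 and 3), where the smaller sets lower the counts by construction. Another alternative left out 1 replicate and kept only IDR peaks matched among the 5164 strongest entries of both others. It gave 15 to 19 members, against 17.9% to 23.1% of all genes. These were 6 to 11 repressive and 7 to 9 activating genes, over the replicate left out and matching within 50, 150 or 300 bp. The lowest of these, 15 members and 6, 8 or 9 repressive genes, differ from the reported 24 and 14 by more than 1.5 times, while the activating count of 10 stayed within it. Without replicate 1 the repressive count was 9 and the activating 8, without replicate 2 it was 10 and 8, and without replicate 3 it was 9 and 9 (matching within 150 bp). The count of 14 members with a summit in the gene body was 9 without the 1000 bp around start sites and 7 with the top 1000 peaks. With 100 bp on either side of the summit, CACNAG was found at 23.2% of the members' peaks and 21.8% of all peaks. Depth is unknown, so no limit from it can be given.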
